A study of Homo sapiens with 9 samples.

Results

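The genes described here are MMP1, MMP10 and MMP13, which encode secreted matrix metalloproteinases, MMP23A, and TFPI2, which encodes a secreted protease inhibitor. They were chosen by gene symbol, with their values in these arrays already known, as proteases and an inhibitor that respond to the transcription factor AP-1. Each has 1 probe set, and the 5 probe sets are 5 of the 53617 in the deposited table, which names 14884 genes through the platform annotation. All 5 were among the 33376 probe sets bright enough to be tested, which means a signal over the 40th percentile of the array on 3 or more of the 9 arrays. MMP1 got there only through the arrays of the groups in which it was higher. The name of the set does not suit MMP23A, which RefSeq lists as a transcribed pseudogene and which therefore encodes no protease.

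RNA came from HEK293, a human embryonic kidney cell line grown in DMEM with 10% serum, and was read on biotin-based single-colour Affymetrix arrays, 3 per group. The TC-G-1008 group was labelled as GPR39-overexpressing cells given 1 uM TC-G-1008, a synthetic agonist of GPR39, a zinc-sensing G protein-coupled receptor. The GPR39 group was labelled as GPR39-overexpressing cells given 0.03 mg/mL cumate, a small molecule that switches on engineered promoters. The mock group was labelled as naive cells without cumate. Whether the TC-G-1008 cells also had cumate, how long cells were exposed, and whether the overexpressing cells were 1 clone is not stated in the labels. In GPR39 over mock, the receptor, cumate and other differences between engineered and naive cells cannot be told apart. In TC-G-1008 over GPR39 neither can the agonist and a possible absence of cumate. In TC-G-1008 over mock, the agonist, the receptor, the engineered cells and possibly cumate cannot be told apart. Replicates were called biological without a statement on separate cultures, so the errors cover array-to-array spread that may be technical.

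Matrix metalloproteinases are zinc-dependent enzymes that cut proteins of the extracellular matrix and of the cell surface. They are made as inactive precursors and are held in check by inhibitors, chiefly the TIMP proteins. MMP1 and MMP13 are collagenases, which can cut intact fibrillar collagen, and MMP10, a stromelysin, cuts proteoglycans and glycoproteins and can activate other members of the family. TFPI2 is a Kunitz-type inhibitor of plasmin and other serine proteases, and plasmin is itself an activator of metalloproteinase precursors. Promoters of several of these genes are textbook targets of AP-1, dimers of FOS and JUN family proteins.

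Promoter windows are shown because 2 of the 5 genes, MMP10 and TFPI2, could be matched to the RefSeq promoter table of build GRCh38.p14 (250 bases before to 50 bases after the gene start). Capitals mark each match to TGANTCA, a form that holds the AP-1 consensus TGACTCA and reads the same on both strands. MMP10 lies at chr11:102780579-102780878 and TFPI2 at chr7:93890704-93891003, both on the minus strand and printed in the direction of the gene.
MMP10: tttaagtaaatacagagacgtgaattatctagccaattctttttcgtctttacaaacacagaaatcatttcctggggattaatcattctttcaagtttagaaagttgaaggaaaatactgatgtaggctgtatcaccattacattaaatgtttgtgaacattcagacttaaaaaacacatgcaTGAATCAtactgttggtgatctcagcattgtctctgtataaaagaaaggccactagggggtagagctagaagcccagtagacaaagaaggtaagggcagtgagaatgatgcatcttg
TFPI2: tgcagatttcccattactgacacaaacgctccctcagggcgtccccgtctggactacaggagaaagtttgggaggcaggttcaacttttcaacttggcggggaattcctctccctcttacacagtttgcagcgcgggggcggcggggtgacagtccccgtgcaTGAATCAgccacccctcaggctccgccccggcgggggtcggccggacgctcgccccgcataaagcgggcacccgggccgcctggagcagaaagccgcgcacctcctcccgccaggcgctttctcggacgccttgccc
Each window held the motif once, as TGAATCA, at positions -67 to -61 in MMP10 and -87 to -81 in TFPI2, counted from the gene start. On either strand TGANTCA was found in 7.72% of all 34943 windows of this length, TGAATCA in 2.99% and the consensus TGACTCA in 4.96%. In both genes the motif was part of an identical run of 11 bases, TGCATGAATCA, the longest stretch that the windows of these 2 genes share on the strand of the gene. That run was found in 5 of the 34943 windows (0.0143%, either strand). The others were TFPI2-DT, which starts beside TFPI2 and reads the same bases on the opposite strand, LOC124907880 and MANCR, none of which has a named probe set here. The run was searched for because it was seen in this pair, so its rarity is a description. The TATA-box letters TATAAA occurred at -31 in MMP10, were not found in the TFPI2 window on either strand, and occurred in 11.6% of all windows.

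As a check on the labels, GPR39 itself was examined first. Its probe set read from 2.45 to 2.65 in the TC-G-1008 arrays, from 2.56 to 2.62 in the GPR39 arrays and from 2.43 to 2.56 in mock, all below the filter, so overexpression was not visible there. That probe set checks nothing if it lies outside the introduced sequence. Array medians ran from 3.13 to 3.22 on the log2 scale. Mock replicate 1 stood apart, with a mean correlation across probe sets of 0.988 with the GPR39 arrays and 0.985 with the other mock arrays. IRS4, characteristic of HEK293, read from 9.37 to 10.6 in all 9 arrays. Of 9 fibroblast markers 3 have a probe set. DCN and LUM were at or below the 40th percentile in all 9 arrays, and THY1 was above it in all 9, at 3.19 to 3.51. Summed linear signals of the 6 HEK293 lineage markers with a probe set ran from 1165 to 1522 in TC-G-1008, from 1235 to 1255 in GPR39 and from 1939 to 2028 in mock arrays. IRS4, the brightest of them, averaged 9.69 in TC-G-1008, 9.52 in GPR39 and 10.54 in mock. VIM was also lower in TC-G-1008 and GPR39 by its brightest probe set (6.94 in TC-G-1008, 7.11 in GPR39 and 7.40 in mock), while KRT18 was higher (8.11 in TC-G-1008, 8.08 in GPR39 and 7.81 in mock). Sums of the 4 leukocyte markers with a probe set, of 8 listed, ran from 242.0 to 281.4 in TC-G-1008, from 214.1 to 217.6 in GPR39 and from 107.7 to 135.1 in mock arrays, led by CD68, a lysosomal glycoprotein gene. CD14 was at 2.69 to 2.99 in the 9 arrays, near the 40th percentile of 2.63 to 2.70. The part of these shifts in the results below was not tested. In bulk RNA, more cells making a transcript and more transcript per cell cannot be told apart.

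MMP10 had the largest log2 difference between TC-G-1008 and GPR39 arrays of all 33376 probe sets tested. Its log2 signal was 8.28, 8.46 and 8.17 in the TC-G-1008 arrays, 3.87, 3.88 and 3.88 in the GPR39 arrays and 2.79, 2.93 and 2.87 in mock. The 3 groups did not overlap, and every TC-G-1008 array lay far above all others. Means were 8.30 ± 0.15, 3.88 ± 0.01 and 2.86 ± 0.07 (SD, n = 3 each), so that MMP10 stood 21.5-fold higher in TC-G-1008 than in GPR39 arrays and 43.4-fold higher than in mock. The difference of GPR39 over mock was 2.02-fold. The mock values lay close above the 40th percentile of their arrays (2.64 to 2.67) and below the array medians (3.13 to 3.20). Both folds against mock therefore rest on dim signal. The small SD of the GPR39 arrays includes an exact tie, since replicates 2 and 3 carry the same value. Exactly equal values made up 4.71% to 6.49% of the table in pairs of arrays from 1 group and 4.88% to 6.03% in pairs from different groups.

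MMP1, the interstitial collagenase gene next to MMP10 on chromosome 11, followed the same order at dim signal. It read 4.05, 5.05 and 4.06 in the TC-G-1008 arrays, 2.99, 2.81 and 3.01 in the GPR39 arrays, and 2.36, 2.497 and 2.55 in mock. All 3 mock arrays were at or below the 40th percentile of their array, so a fold against mock is a lower bound with that percentile in place of the dimmer values. By that measure MMP1 was at least 3.34-fold higher in TC-G-1008 than in mock and at least 1.22-fold higher in GPR39 than in mock. TC-G-1008 over GPR39 was 2.73-fold, from means of 4.39 ± 0.57 and 2.94 ± 0.11 (SD, n = 3). Replicate 2 of the TC-G-1008 group stood about 1 log2 unit above the other 2 arrays of its group. Without it the difference from GPR39 was 2.17-fold and MMP1 was still higher in each TC-G-1008 array than in any other array.

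MMP13, collagenase 3, differed most in the other step. It read 6.48, 6.497 and 6.16 in the TC-G-1008 arrays, 5.54, 5.54 and 5.48 in the GPR39 arrays, and 3.22, 3.22 and 3.50 in mock. No groups overlapped, but the wide gap lay between GPR39 and mock, not between TC-G-1008 and GPR39. GPR39 over mock was 4.60-fold, from means of 5.52 ± 0.04 and 3.31 ± 0.16 (SD, n = 3). TC-G-1008 over GPR39 was 1.82-fold, with a TC-G-1008 mean of 6.38 ± 0.19, and TC-G-1008 over mock was 8.36-fold. The log2 difference of GPR39 over mock ranked 11th from the top for MMP13 and 121st for MMP10 among 33376 probe sets.

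TFPI2, the Kunitz inhibitor gene, was already bright in mock and higher at each step. Its log2 signal was 10.99, 11.04 and 10.84 in the TC-G-1008 arrays, 9.07, 9.26 and 9.25 in the GPR39 arrays and 7.85, 7.82 and 7.88 in mock. The groups were separated by gaps of over 1 log2 unit with SDs of 0.10, 0.11 and 0.03 (n = 3 each). TC-G-1008 over GPR39 was 3.40-fold, TC-G-1008 over mock 8.59-fold and GPR39 over mock 2.53-fold. Its 2 steps on the log2 scale were 1.76 for TC-G-1008 over GPR39 and 1.34 for GPR39 over mock.

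MMP23A, the pseudogene, shifted little. It read 5.41, 5.42 and 5.495 in the TC-G-1008 arrays, 5.22, 5.23 and 5.20 in the GPR39 arrays, and 5.07, 5.24 and 5.24 in mock. The TC-G-1008 arrays lay above all others, and the GPR39 arrays lay within the range of mock. The log2 difference was 0.23 for TC-G-1008 over GPR39, 0.26 over mock and 0.04 for GPR39 over mock, the last becoming -0.02 without mock replicate 1. MMP23B is a near-identical protein-coding gene, and whether its transcript also binds the MMP23A probe set was not tested. Its own probe set averaged 3.98 ± 0.21 in TC-G-1008, 3.73 ± 0.03 in GPR39 and 3.51 ± 0.39 in mock (SD, n = 3), with no difference past the threshold of limma at adjusted p 0.05.

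**Figure D1:**
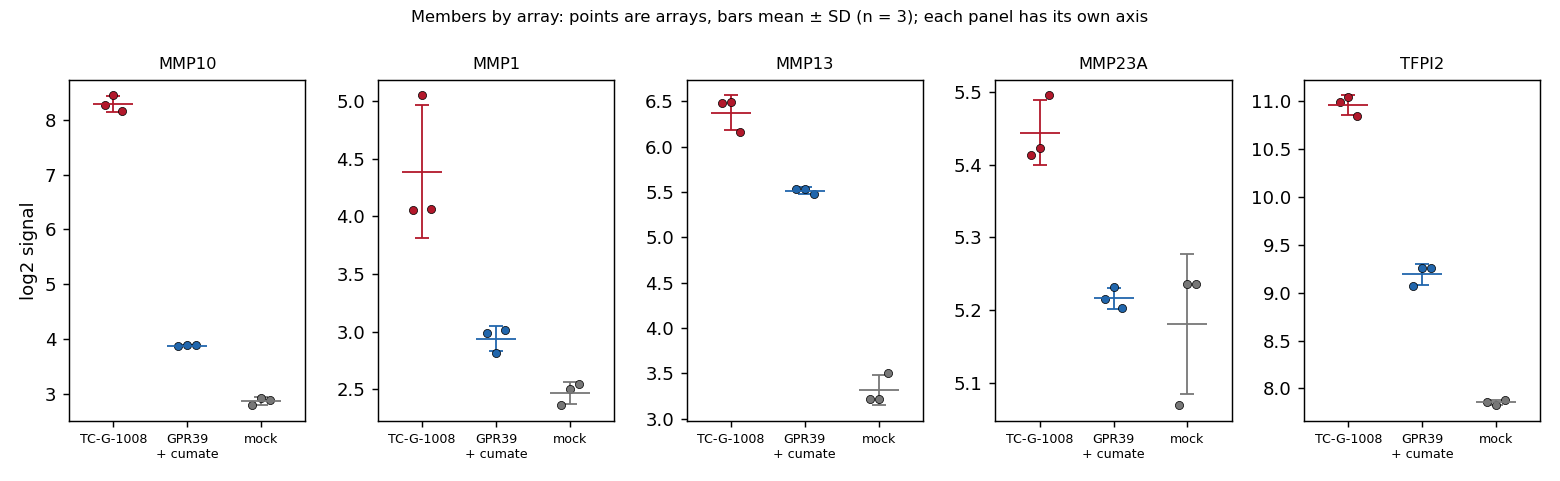
Log2 signal (vertical axis, a separate scale in each panel) of MMP10, MMP1, MMP13, MMP23A and TFPI2 in the TC-G-1008, GPR39 with cumate, and mock arrays. Points are arrays and bars the mean ± SD (n = 3): MMP10 averages 8.30 in TC-G-1008, MMP13 is already at 5.52 in GPR39, and the GPR39 and mock arrays of MMP23A overlap.

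Counted together, all 5 genes had TC-G-1008 arrays entirely above the GPR39 arrays, as did 13.5% of all tested probe sets. The same held for 5 of 5 against mock, beside 14.8% of all probe sets. In GPR39 against mock it held for 4 of 5, all but MMP23A, beside 11.4%. As the genes were picked from these comparisons, the counts are no evidence about them. Their median log2 difference was 1.45 in TC-G-1008 over GPR39, 3.06 in TC-G-1008 over mock and 1.02 in GPR39 over mock, while the median over all tested probe sets was 0.01, 0.02 and 0.01. TC-G-1008 over mock and GPR39 over mock share the mock arrays, and TC-G-1008 over GPR39 and GPR39 over mock share the GPR39 arrays. Leaving out 1 array at a time kept MMP10 between 20.4-fold and 22.5-fold in TC-G-1008 over GPR39, MMP13 between 1.74-fold and 1.96-fold, and TFPI2 between 3.25-fold and 3.54-fold. Without mock replicate 1, GPR39 over mock was 1.97-fold for MMP10.

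Genes with the most similar profile over the 9 arrays were named among 11911 genes outside the set, by Pearson correlation of log2 signals. The 9 points fall in 3 groups, so the correlation mainly reflects the group means and is given without a p. For MMP10 they were HOMER1 and KDM6B (r = 0.999 each), DUSP1 (0.997) and USP17L12 and USP17L9P (0.996), the last 2 with identical values. HOMER1, an activity-regulated synaptic scaffold gene, averaged 9.74 in TC-G-1008, 7.79 in GPR39 and 7.42 in mock, and DUSP1, a MAP kinase phosphatase gene, averaged 10.65 in TC-G-1008, 9.31 in GPR39 and 8.91 in mock. For MMP13 they were LIF and CD44 (0.994), RNF10 (0.993), FOSL1 (0.992) and ACSL4 (0.990). CD44, the hyaluronan receptor gene, averaged 6.76 in TC-G-1008, 5.96 in GPR39 and 4.21 in mock, and FOSL1, an AP-1 subunit gene, averaged 8.23 in TC-G-1008, 7.38 in GPR39 and 5.57 in mock. For TFPI2 they were BMP2 (0.998), CCL20 (0.997), KLF5 and CXCL8 (0.996 each) and PRPS2 (0.995). For MMP1 they were DIMT1 (0.991), NAF1 (0.986), LINC01128 and FOXJ3 (0.982 each) and MYBL1 (0.981). Within the set, MMP10 correlated with TFPI2 at 0.963, with MMP1 at 0.953, with the little-shifted MMP23A at 0.917 and with MMP13 at 0.826.

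MMP10, MMP1 and MMP13 lie in a run of 9 metalloproteinase genes on chromosome 11, in the RefSeq order MMP7, MMP20, MMP27, MMP8, MMP10, MMP1, MMP3, MMP12 and MMP13. MMP20, the enamel protease enamelysin, MMP27 and MMP8, the neutrophil collagenase, have a probe set and were too dim to be tested, as was MMP12, the macrophage elastase. MMP8 read 1.92, 2.51 and 2.31 in the TC-G-1008 arrays, 2.24, 2.18 and 2.24 in the GPR39 arrays and 2.12, 2.17 and 1.90 in mock, and the TC-G-1008 arrays overlapped both other groups. MMP12, between MMP1 and MMP13, read 2.95, 2.74 and 2.44 in TC-G-1008, 2.31, 2.02 and 2.22 in GPR39 and 2.08, 2.16 and 1.91 in mock. Its TC-G-1008 arrays lay above all others, yet only 2 of them passed the 40th percentile, too few for the filter, so no test was made. MMP7 and MMP3 have no named probe set. WTAPP1, a transcribed pseudogene whose RefSeq span overlaps MMP1, was looked up after the data were seen. It lay between 2.17 and 2.40 in all 9 arrays, at or below the 40th percentile. Outside the run, BIRC2, an inhibitor of apoptosis gene, was 0.38 ± 0.10 (SE) log2 units higher in TC-G-1008 than in mock (limma adjusted p = 0.0336). That call was lost, at an adjusted p of up to 0.0995, when TC-G-1008 replicate 1 or 2, mock replicate 2 or 3 or any GPR39 array was left out, and also without the filter or with only TC-G-1008 and mock in the fit. TMEM123, the neighbouring gene, did not pass in any comparison.

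**Figure D2:**
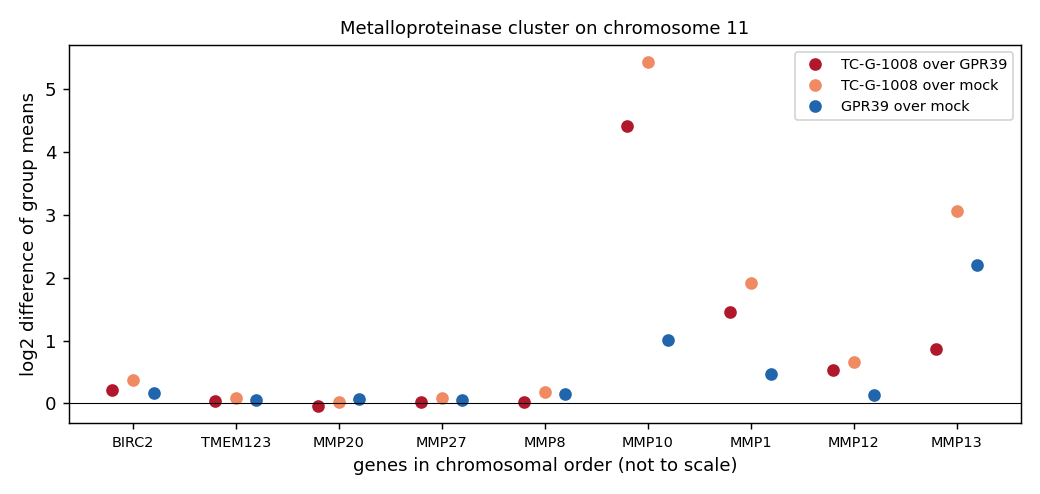
Log2 difference of group means (vertical axis) for 9 genes with a named probe set in and beside the chromosome 11 cluster, in chromosomal order and not to scale. MMP10 (4.42 and 5.44 in TC-G-1008 over GPR39 and over mock), MMP1 and MMP13 have the highest points. MMP20, MMP27, MMP8 and MMP12 were too dim to be tested, so their points (up to 0.66, in MMP12) do not show whether they changed.

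Beyond the 5 genes, 8 lists of proteases, inhibitors and their regulators were followed, with each gene represented by its brightest tested probe set. Of 219 listed genes 126 have a named probe set and 103 were tested. As background, limma called 9.06% of all tested probe sets in TC-G-1008 over GPR39 (3.12% higher, 5.95% lower), 15.0% in TC-G-1008 over mock (6.11% higher, 8.94% lower) and 1.17% in GPR39 over mock (0.749% higher, 0.422% lower). In GPR39 over mock that balance turned over without mock replicate 1, with 416 probe sets higher and 907 lower, against 250 higher and 141 lower with it. Over the 8 lists 12 rose and 6 fell in TC-G-1008 over GPR39, 19 rose and 10 fell in TC-G-1008 over mock, and 9 rose and 2 fell in GPR39 over mock. The 10 tested metalloproteinase genes outside the set, among 20 listed, did not pass in any comparison. At an unadjusted p under 0.05, limma gave 2, 4 and 1 of them in TC-G-1008 over GPR39, TC-G-1008 over mock and GPR39 over mock, and eBayes with trend and robust options gave 0 adjusted calls in each. MMP14, the membrane-anchored enzyme that activates other metalloproteinases, averaged 4.14 ± 0.26 in TC-G-1008, 4.42 ± 0.08 in GPR39 and 4.43 ± 0.08 in mock (SD, n = 3). Its log2 difference of TC-G-1008 over GPR39 had a 95% interval from -0.58 to 0.01, which does not settle its direction. Log2 differences of the 10 genes, which do not include the dimmer MMP12, ran from -0.29 to 0.25 in TC-G-1008 over GPR39. Those of the 5 genes of the set ran from 0.23 to 4.42. As the 5 were chosen with these differences known, the wider range is a description and no evidence that they stand apart.

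Few inhibitors of metalloproteinases passed the threshold. Of 7 tested metalloproteinase inhibitor and related genes, 1 rose, 1 fell and 5 did not pass in TC-G-1008 over GPR39. Of all tested probe sets, 3.12% were called higher and 5.95% lower there. The gene that fell was RECK, a membrane-anchored inhibitor of metalloproteinases. RECK read 4.75, 4.52 and 4.53 in TC-G-1008, 5.22, 4.99 and 5.10 in GPR39 and 5.58, 5.71 and 5.57 in mock, so the groups were fully separated and ran opposite to MMP10. It was lower by a log2 difference of -0.50 ± 0.09 in TC-G-1008 over GPR39 (adjusted p = 0.0155), -1.02 ± 0.09 in TC-G-1008 over mock (adjusted p = 0.000353) and -0.52 ± 0.09 in GPR39 over mock (adjusted p = 0.0491; errors are SE). The first call was lost without GPR39 replicate 1 or 3 (adjusted p up to 0.0583). The third was lost without any GPR39 array, mock replicate 2 or 3, or TC-G-1008 replicate 2 or 3 (up to 0.169), and also without the filter, after either rescaling or with only GPR39 and mock in the fit. TIMP3, which encodes a TIMP that binds to the matrix, read 7.996, 8.0 and 7.91 in TC-G-1008, 7.65, 7.65 and 7.74 in GPR39 and 7.65, 7.74 and 7.62 in mock. TC-G-1008 arrays lay above the rest by a small step of 0.29 ± 0.07 over GPR39 (adjusted p = 0.0358) and 0.30 ± 0.07 over mock (adjusted p = 0.0209). Leaving out any TC-G-1008 or GPR39 array ended the first call (adjusted p up to 0.120), and TC-G-1008 replicate 1 or 2 or mock replicate 3 the second (up to 0.0620). The first was also lost without the filter, and both were lost with a replicate block or when only the compared groups were fitted. The dimmer TIMP3 probe set did not pass. TIMP1, the inducible TIMP, had a log2 difference of -0.28 in TC-G-1008 over mock with a 95% interval from -0.47 to -0.09, which missed the threshold (adjusted p = 0.0537). TIMP2 had 0.07 with an interval from -0.10 to 0.25.

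TFPI, the paralogue of TFPI2 that inhibits the tissue factor pathway, was 1 of 9 tested serpin, Kunitz and related inhibitor genes and the 1 that passed. It averaged 5.70 ± 0.11 in TC-G-1008, 5.75 ± 0.12 in GPR39 and 5.09 ± 0.09 in mock (SD, n = 3). The difference was 0.61 ± 0.09 in TC-G-1008 over mock (adjusted p = 0.00385) and 0.65 ± 0.09 in GPR39 over mock (adjusted p = 0.0200). The call in GPR39 over mock was lost without any GPR39 array or without mock replicate 2 or 3 (adjusted p up to 0.0865), and with only these 2 groups in the fit (0.0845). Unlike TFPI2, TFPI showed no further step, with a log2 difference of -0.04 in TC-G-1008 over GPR39 and a 95% interval from -0.26 to 0.17.

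F2R, the thrombin receptor PAR1, which MMP1 can also cleave, was the 1 gene of 10 in the plasminogen and tissue factor list to pass in TC-G-1008 over GPR39. F2R read 5.88, 5.46 and 5.36 in TC-G-1008, 6.73, 6.78 and 6.63 in GPR39 and 6.64, 6.65 and 6.64 in mock. The fall was -1.14 ± 0.13 against GPR39 (adjusted p = 0.00206) and -1.08 ± 0.13 against mock (adjusted p = 0.00120), and it passed without any single array. HTRA1, a secreted serine protease gene, fell by 0.54 on the log2 scale in TC-G-1008 over GPR39 (adjusted p = 0.00446) and by 0.68 over mock (adjusted p = 0.000811), also without any single array. The list of proteases that activate metalloproteinases was drawn broadly, and 25 of its genes were tested. In both of these comparisons 3 fell (HTRA1, CTSD and CTSZ) and 0 rose. Of all tested probe sets, 5.95% were called lower over GPR39 and 8.94% over mock. Whether the proteins of these 3 genes act on metalloproteinases was not tested. In GPR39 over mock none of the 25 passed in limma, with 3 at an unadjusted p under 0.05 and 0 under eBayes with trend and robust options.

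**Figure D3:**
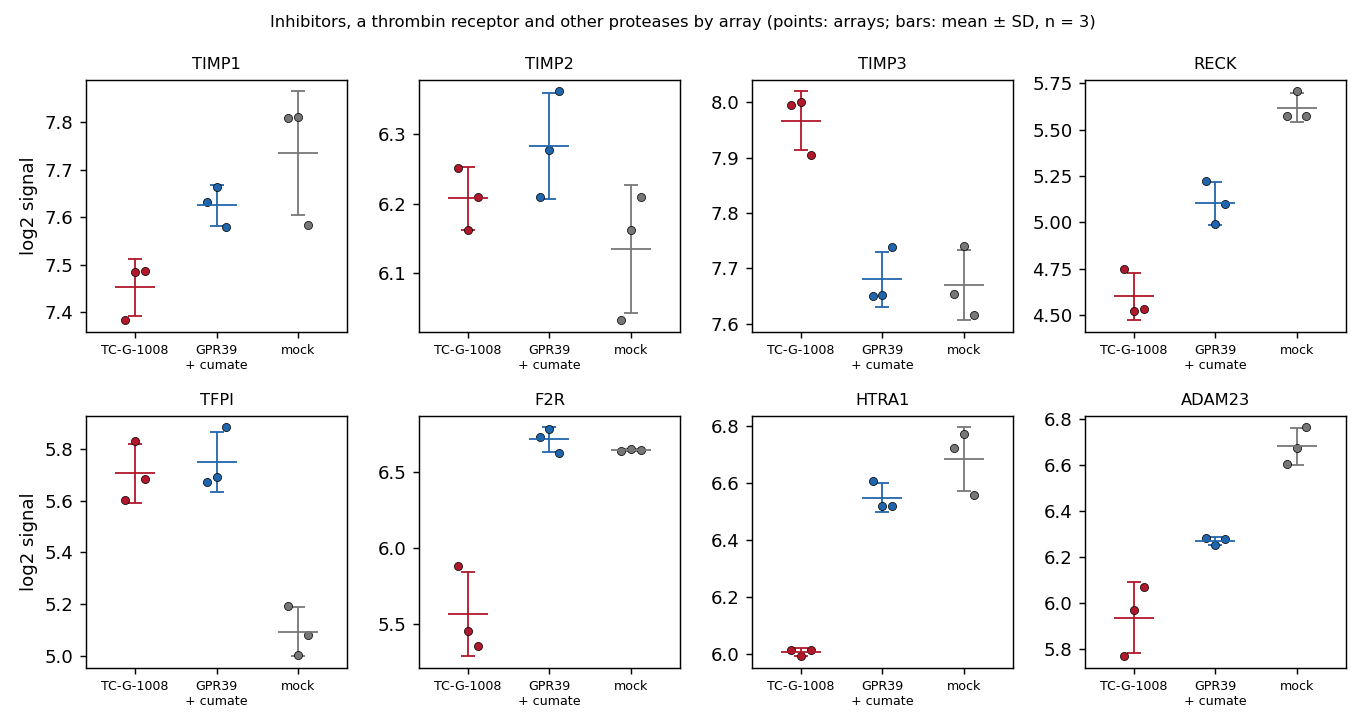
Log2 signal by array (vertical axes, a separate scale in each panel) of TIMP1, TIMP2, TIMP3, RECK, TFPI, F2R, HTRA1 and ADAM23 in the TC-G-1008, GPR39 with cumate, and mock arrays. Points are arrays and bars the mean ± SD (n = 3): RECK is lowest in TC-G-1008, TFPI differs between mock and both other groups, and F2R averages 5.57 in TC-G-1008 against 6.71 in GPR39 and 6.64 in mock.

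Transcription factors known at metalloproteinase promoters were the list with the most calls. The list was chosen with earlier results of these data known, so its counts are a description and no evidence about it. Over all tested probe sets, the share called higher was 3.12% in TC-G-1008 over GPR39, 6.11% in TC-G-1008 over mock and 0.749% in GPR39 over mock. Of 21 tested, 11 rose and 1 fell in TC-G-1008 over GPR39, 16 rose and 1 fell in TC-G-1008 over mock, and 8 rose and 1 fell in GPR39 over mock. Some rises were lost in fits that left out 1 of the 9 arrays. In TC-G-1008 over GPR39 these were JUN (5 fits), ETS1 (7) and JUND (4). In GPR39 over mock they were FOSL2 and ETV4 (6 each), and in TC-G-1008 over mock ETV4 (7). The other rises passed without any single array. The 7 protease and inhibitor lists together had 1 rise and 5 falls among 82 genes in TC-G-1008 over GPR39, 3 and 9 in TC-G-1008 over mock, and 1 and 1 in GPR39 over mock. Among AP-1 subunit genes, FOSB averaged 8.43 ± 0.13 in TC-G-1008, 5.77 ± 0.06 in GPR39 and 5.597 ± 0.22 in mock (SD, n = 3). That is a large step over GPR39 (2.66 ± 0.12, adjusted p = 1.98e-05) and none past the threshold in GPR39 over mock (0.17, adjusted p = 0.537), the step in which MMP10 also differed least. FOSL1 had its larger step where MMP13 did, at 1.81 ± 0.14 in GPR39 over mock (adjusted p = 0.000926) and 0.85 ± 0.14 in TC-G-1008 over GPR39 (adjusted p = 0.00933). JUNB rose in both, by 1.57 ± 0.12 over GPR39 (adjusted p = 0.000377) and by 1.19 ± 0.12 in GPR39 over mock (adjusted p = 0.00450). Other listed factors had their larger step in the same comparisons as FOSB or FOSL1. Factors and members were chosen with these values known, and whether any factor acts on MMP10 or MMP13 was not tested. FOS was 1.75 ± 0.11 higher in TC-G-1008 than in GPR39 (adjusted p = 0.000105) and lower in GPR39 than in mock by -0.74 ± 0.11 (adjusted p = 0.0204). The call in GPR39 over mock was lost without mock replicate 2 or 3 or GPR39 replicate 3 (adjusted p up to 0.0816) and with only these 2 groups in the fit (0.0761). The other, dimmer FOS probe set showed -0.06 in GPR39 over mock. In TC-G-1008 over GPR39 it showed 0.76, which missed the threshold (adjusted p = 0.0525). ETS1, whose protein binds beside AP-1 at metalloproteinase promoters, rose by 1.15 ± 0.08 in GPR39 over mock (adjusted p = 0.000686). ATF3, a stress-induced partner of AP-1 proteins, rose by 1.39 ± 0.15 in GPR39 over mock (adjusted p = 0.00533) and by 1.91 ± 0.15 in TC-G-1008 over mock. Of the NF-kB subunit genes, NFKB2 rose by 0.94 ± 0.09 in GPR39 over mock (adjusted p = 0.00293) and by 0.77 ± 0.09 in TC-G-1008 over GPR39 (adjusted p = 0.00213). NFKB1 rose by 0.86 ± 0.07 in GPR39 over mock (adjusted p = 0.000926) and by 0.82 ± 0.07 in TC-G-1008 over GPR39 (adjusted p = 0.000451). REL rose by 0.92 ± 0.10 in TC-G-1008 over GPR39 (adjusted p = 0.00205). ETV1, an ETS family gene, was the 1 factor that fell in TC-G-1008, by -0.80 ± 0.17 over GPR39 (adjusted p = 0.0256). That call was lost without GPR39 replicate 2 or 3 or TC-G-1008 replicate 2 or 3 (up to 0.0896) and with only these 2 groups in the fit.

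**Figure D4:**
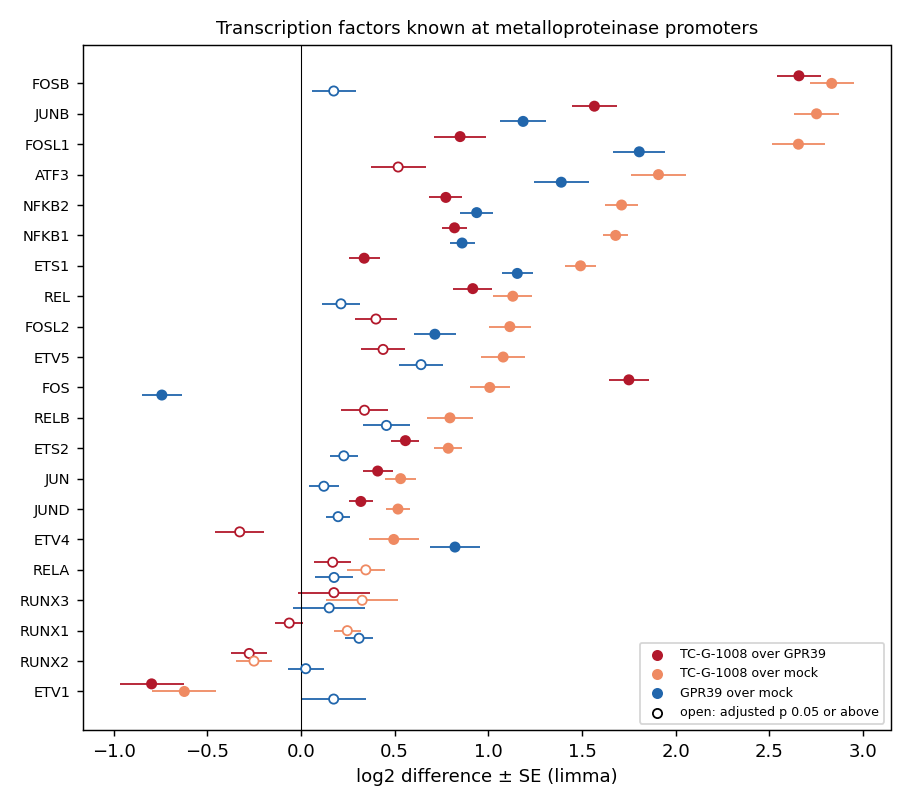
Log2 difference ± SE from limma (horizontal axis) for 21 tested transcription factor genes, ordered by TC-G-1008 over mock. Filled points passed an adjusted p of 0.05 and open points did not: FOSB, JUNB and FOSL1 lie furthest right in TC-G-1008 over mock, and ETV1 lies left of 0.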

How the data were processed

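The authors deposited 1 table of log2 signals per probe set for 9 arrays. That the values are log2 was judged from the values, and MAS5 is the tool named, per the submitters' processing notes. How background was corrected, arrays were scaled and logs were taken is not stated in the labels. Values were used as deposited. Of 53617 probe sets, 16098 have 1 gene symbol in the platform annotation. Control probe sets were not separated. Arrays give no read depth, and their number limits the precision.

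The 33376 probe sets over the 40th percentile on 3 or more of 9 arrays were fitted together in limma 3.58.1 (R 4.3.3, lmFit and eBayes, 6 residual and 2.12 prior degrees of freedom), two-sided, with Benjamini-Hochberg adjustment over all of them and a threshold of 0.05. The fit was tested on simulated data. The 5 genes of the set have values and no test. Members, gene lists and naming rules were chosen with earlier results of these data known. Named list genes were those with up to 5 largest differences per list and comparison among those past the threshold, plus TIMP1, TIMP2, TIMP3, the cluster neighbours and the 5 nearest profiles. MMP14, MMP23B, WTAPP1, ETV1, NFKB1 and the cell type markers were named outside that rule, after their values were seen. Alternatives were the filter, scaling, arrays in the fit, variance model, repeated rows, probe set choice, a replicate block and leaving out each array.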

Additional observations from a re-analysis of the deposited data

How the results depend on the processing

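The median log2 difference of the 5 genes kept its sign under all alternatives run. Leaving out 1 array gave 1.12 to 1.62 in TC-G-1008 over GPR39. There each TC-G-1008 array left out moved it by more than a typical SD, the median over the 5 genes of the larger group SD. In TC-G-1008 over mock (3.005 to 3.16) and GPR39 over mock (0.98 to 1.05) no array left out did so. The median in TC-G-1008 over GPR39 is the value of MMP1, whose own SD among the TC-G-1008 arrays was larger than these shifts. For single genes, MMP23A in GPR39 over mock changed sign, to -0.0193 without mock replicate 1, and ranged up to 0.0639 without mock replicate 2.

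Probe sets called numbered 3025 in TC-G-1008 over GPR39, 5022 in TC-G-1008 over mock and 391 in GPR39 over mock, and leaving out 1 array gave 1509 to 3119, 3493 to 4947 and 108 to 1323, the highest of the last without mock replicate 1, when 31.4% of calls were higher against 63.9% with it. With only the 2 groups compared in the fit, calls fell to 3133 in TC-G-1008 over mock and 190 in GPR39 over mock. In GPR39 over mock, a filter at the 60th percentile gave 637 and eBayes with trend and robust options 663. Centring on the 75th percentile made 56.2% of calls higher in TC-G-1008 over mock, against 40.6% as deposited, and 74.7% against 63.9% in GPR39 over mock. Genes called in the 8 lists numbered 18, 29 and 11, and leaving out 1 array gave 10 to 18, 26 to 31 and 6 to 12. With only the 2 groups compared, 7 were called in GPR39 over mock.

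Whether the replicate numbers pair the arrays is not stated in the labels. Same-numbered arrays of different groups had deviations correlated between -0.101 and 0.065, and differently numbered arrays between -0.129 and 0.119. No shared replicate effect was seen, but with 3 arrays per group this cannot settle whether cultures were paired. With the replicate number as a block, calls were 1819, 3955 and 150 and the 8 lists had 11, 26 and 8 genes called. In TC-G-1008 over GPR39 that block ended the calls of JUN, JUND, ETS1, ETV1, TIMP3, CTSD and CTSZ. In TC-G-1008 over mock it ended those of ADAM12, BIRC2, ETV1, ETV4 and TIMP3, and in GPR39 over mock those of ETV4, TFPI and RECK. Of 59 calls of list and neighbour genes, 40 held under every alternative run, and no call changed sign. The cause of these changes was not tested. Dim signal limits MMP1 and MMP10 in mock and most of the chromosome 11 cluster.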

Other observations

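Several genes of the protease lists not described above differed between TC-G-1008 and mock arrays. Of 11 tested ADAM genes 3 fell and none rose, while 8.94% of all tested probe sets were called lower and 6.11% higher. ADAM23 and ADAM22, which encode non-catalytic neuronal adhesion proteins, averaged 5.94 ± 0.15 and 5.94 ± 0.04 in TC-G-1008 against 6.68 ± 0.08 and 6.38 ± 0.08 in mock (SD, n = 3), with adjusted p of 0.00119 and 0.00393 in limma. ADAM12, a catalytically active member, changed by -0.31 ± 0.07 (SE, adjusted p = 0.0247), a call lost without mock replicate 2 or 3 or TC-G-1008 replicate 1 or 2 (up to 0.0726), after either rescaling and with only these 2 groups in the fit. PAPPA2, a protease that cuts IGF-binding proteins, was the 1 of 10 ADAMTS, astacin and related genes to rise, by 0.37 ± 0.07 (adjusted p = 0.0127), a call lost with only these 2 groups in the fit (0.0530).

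The lysosomal protease genes CTSD and CTSZ averaged 8.54 ± 0.06 and 6.05 ± 0.04 in TC-G-1008 against 9.03 ± 0.12 and 6.52 ± 0.05 in mock (SD, n = 3), with adjusted p of 0.00632 and 0.00184. Against GPR39 they changed by -0.33 ± 0.08 (adjusted p = 0.0478) and -0.29 ± 0.06 (adjusted p = 0.0239), and both of these calls were lost without any single TC-G-1008 or GPR39 array except, for CTSZ, TC-G-1008 replicate 2. The CTSD call was also lost without mock replicate 1 or 2, with adjusted p up to 0.152, as well as without the filter, after either rescaling and with only these 2 groups in the fit. S100A10, whose protein helps to bind plasminogen at the cell surface, fell by 0.49 on the log2 scale in TC-G-1008 over mock (adjusted p = 0.0112).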
